A study of Homo sapiens with 6 samples.

Results

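Before a cell divides it must copy each stretch of its genome once, and the 45 genes described here encode the proteins that mark, open and copy replication origins. They were taken by symbol, by a rule that uses no measured value but was written with earlier results of these data known, from the 36459 gene symbols counted, and all 45 were among the 14626 genes with enough counts to be tested. Origin licensing has 15 of them, origin firing 8, the replication fork 21, and the remaining one is E2F1, a transcription factor of S phase genes.

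RNA of PC9 cells, a line derived from human non-small cell lung cancer, was compared with that of PS cells, the drug-tolerant persisters left in PC9 cultures that had spent 6 days with erlotinib at 15 µM. Erlotinib blocks the kinase of EGFR. Each condition had 3 libraries. The PC9 libraries came from 3 independent cultures without erlotinib, while 9 independently grown PS cultures were pooled into 3 libraries, so that each PS library is an average over cultures and the spread between PS libraries may be smaller for that reason. All cells were of the one line, and the sources used here describe no other genetic change.

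In G1 the origin recognition complex (ORC1 to ORC6) sits on DNA and, with CDC6 and CDT1, loads the ring-shaped MCM2-7 helicase, a step that geminin (GMNN) blocks once S phase has begun. In S phase the kinase CDC7 with its partner DBF4 helps turn the loaded ring into the active CDC45-MCM-GINS helicase, after which primase and DNA polymerases alpha, delta and epsilon copy the strands, PCNA and its RFC loader hold the polymerases on DNA, RPA covers single strands, and FEN1 and LIG1 join the lagging-strand pieces. Many of these genes are known targets of E2F factors, which the retinoblastoma protein restrains until the cell passes into S phase.

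The upstream sequence is shown for 4 members because letters of one searched E2F set stood in front of genes that were lower and genes that were higher in PS cells. The letters searched were TTTCCCGC, TTTCGCGC, TTTGCCGC and TTTGGCGC on both strands, in the 250 bases before each RefSeq transcript start (GRCh38). They occurred before at least one start in 15 of the 39 members with an entry (38.5%), against 928 of all 27305 genes with an entry (3.40%). Each sequence reads 5′ to 3′ along its gene, and capitals mark the letters found. CDT1 (chr16:88803539-88803788, plus strand) and MCM6 (chr2:135876444-135876693, minus strand) were lower in PS cells, and E2F1 (chr20:33686386-33686635, minus strand) and POLE (chr12:132687343-132687592, minus strand) were higher.
CDT1: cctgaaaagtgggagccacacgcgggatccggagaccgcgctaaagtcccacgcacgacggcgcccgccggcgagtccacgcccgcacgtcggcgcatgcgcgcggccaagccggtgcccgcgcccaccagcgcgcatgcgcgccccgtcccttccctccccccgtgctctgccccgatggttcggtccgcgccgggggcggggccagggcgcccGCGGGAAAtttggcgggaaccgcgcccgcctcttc
MCM6: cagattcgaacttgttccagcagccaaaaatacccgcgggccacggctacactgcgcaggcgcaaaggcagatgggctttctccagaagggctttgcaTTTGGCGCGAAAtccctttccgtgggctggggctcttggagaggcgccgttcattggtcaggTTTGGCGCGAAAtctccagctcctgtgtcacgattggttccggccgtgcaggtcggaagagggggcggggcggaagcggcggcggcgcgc
E2F1: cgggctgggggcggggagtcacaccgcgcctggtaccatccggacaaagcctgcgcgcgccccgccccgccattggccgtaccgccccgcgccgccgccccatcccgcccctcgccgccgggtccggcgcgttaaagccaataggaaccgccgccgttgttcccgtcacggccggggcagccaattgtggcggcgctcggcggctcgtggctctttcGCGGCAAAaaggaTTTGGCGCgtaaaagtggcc
POLE: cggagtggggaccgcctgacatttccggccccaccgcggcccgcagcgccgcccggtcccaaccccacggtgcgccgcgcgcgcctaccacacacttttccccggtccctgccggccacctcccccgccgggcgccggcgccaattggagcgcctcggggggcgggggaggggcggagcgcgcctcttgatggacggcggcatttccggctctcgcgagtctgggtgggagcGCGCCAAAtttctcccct

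The match began at -35 in CDT1 and at -18 in POLE, counted from the transcript start. In CDT1 it was TTTCCCGC on the opposite strand, which the other genes shown did not hold. In POLE it was TTTGGCGC on the opposite strand, which E2F1 and MCM6 held on the given strand. E2F1 had matches at -33 and -20, and MCM6 had 4, which formed 2 overlapping pairs at -152 and -148 and at -90 and -86. Split by the test described next, the letters were present in 7 of 15 members that were lower in PS cells, 3 of 6 that were higher and 5 of 18 that did not pass. The CCAAT box, another element common in promoters of cell cycle genes, was present in 23 of 39 members (59.0%) and in 37.0% of all genes. The letters TTTGAA or TTCGAA of the cell cycle homology region were present in 1 of 39 members (2.56%), MCM6, and in 17.2% of all genes. GINS4, MCM4, MCM5, POLD3, RPA2 and RPA3 had no entry. A match of letters is a description of the sequence and does not show binding.

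Each library had between 29476725 and 34893782 counts on genes. Replicates differed beyond counting noise (chi-square divided by its degrees of freedom, 3.53 to 21.4, highest for PC9 replicates 1 and 2), and all 6 libraries entered as separate replicates. Of the epithelial markers, EPCAM, CDH1, KRT7, KRT8, KRT18 and KRT19 were abundant, while the lung markers NKX2-1 and NAPSA were at or near 0 in every library. The summed level of 9 markers of blood, endothelial and stromal cells was 89.2 to 91.6 CPM (counts scaled to library size) in PC9 libraries and 46.4 to 53.1 CPM in PS libraries, most of it CD68 and COL1A1. These moved in opposite directions, CD68 from a mean of 74.8 CPM in PC9 to 21.1 CPM in PS and COL1A1 from 10.2 to 28.2 CPM. Of the defining genes, CD3E was at 0 throughout, PTPRC was at most 0.356 CPM, and PECAM1 had a mean of 4.37 CPM in PC9 and 0.214 CPM in PS. The part of such RNA in the values below was not tested.

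Of the 45 members, 20 were lower and 7 were higher in PS cells than in PC9 cells, and 18 did not pass the test. The test was edgeR's quasi-likelihood test on the gene counts, adjusted by Benjamini-Hochberg over all 14626 genes, with a limit of 0.01 on the adjusted p. Over all genes, 28.1% were lower and 28.7% were higher, so the share of members that rose (7 of 45) was below that of all genes and the share that fell (20 of 45) above it. The median log2 fold change of the members was -0.17, against -0.0061 for all genes tested. Every PS library lay below every PC9 library in 25 members and above in 9, and the libraries overlapped in 11. Over all genes, 35.7% lay wholly below and 35.5% wholly above. Changes were small: 4 members were lower by more than 1.5-fold (CDT1, ORC1, PRIM1 and POLD4), where 12.6% of all genes were, and 0 were higher by that much, where 11.4% were, although 8 members were higher at an unadjusted p under 0.05 (edgeR) and 7 passed the adjusted limit without the fold requirement.

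In bulk RNA, fewer cells in a phase that uses a gene and less RNA of that gene per cell cannot be told apart, and this holds for every value here. The split between members that fell and rose also moved with the scaling. It was 20 lower and 7 higher with edgeR's TMM factors, 25 and 5 with upper-quartile factors and 25 and 4 with library size alone. Leaving out PS replicate 2 or PS replicate 3 left 4 higher members.

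**Figure D1:**
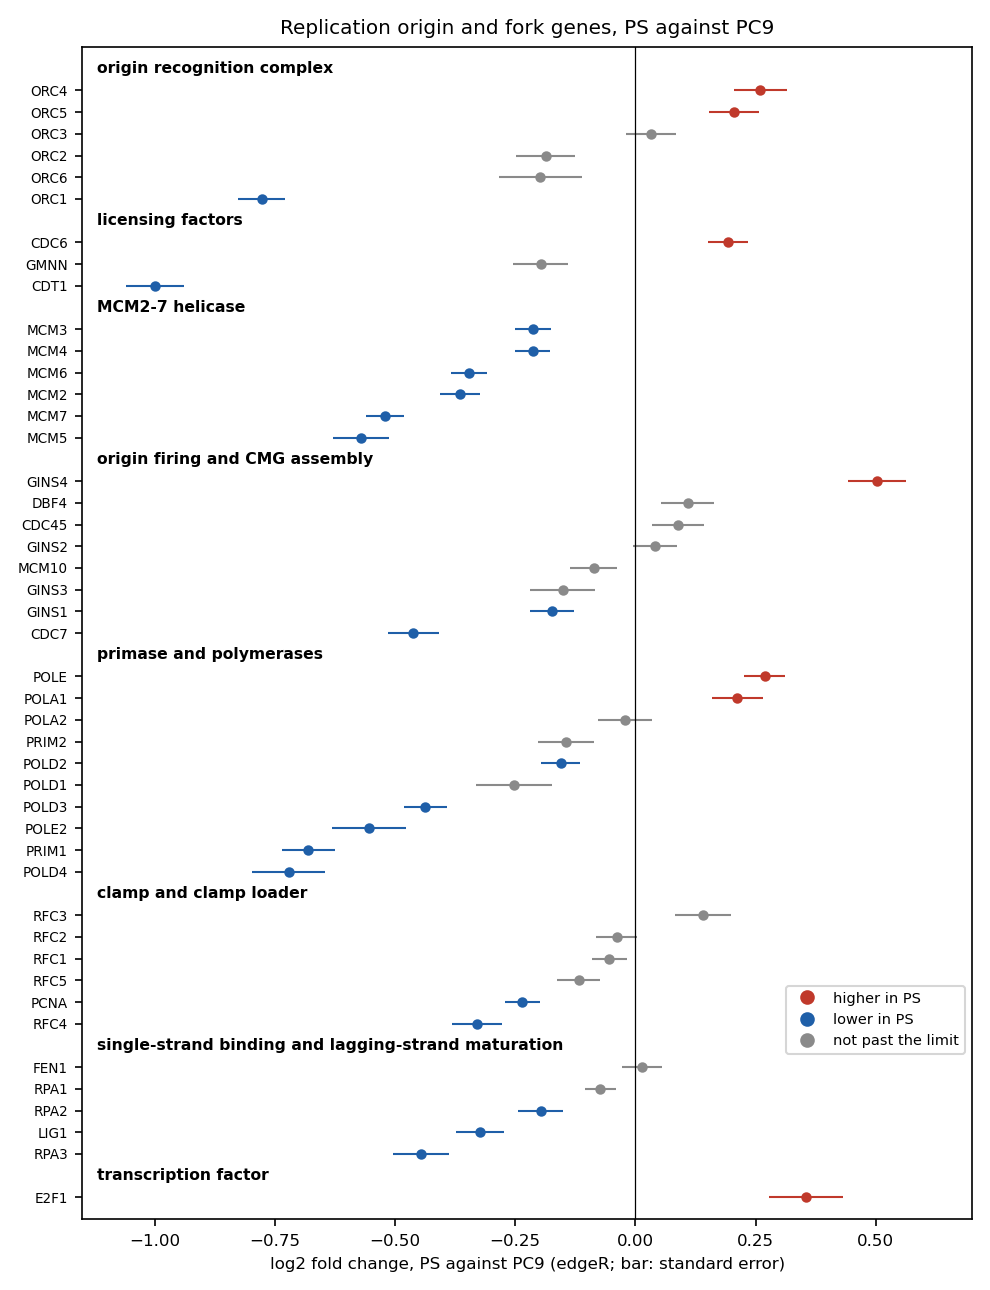
The log2 fold change of each of the 45 members, PS against PC9, grouped by role (points, edgeR estimate; bars, standard error; red higher, blue lower, grey not past the limit). All 6 MCM2-7 genes lie left of 0, CDT1 and ORC1 have the lowest values of the licensing genes, followed by MCM5 and MCM7, and GINS4 has the largest rise at 0.50.

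The licensing and fork sets both had medians below 0, and the firing set lay near 0. Of 15 licensing members 8 were lower and 3 higher, with a median log2 fold change of -0.21. Most of the lower ones were the 6 MCM2-7 genes (median -0.36), whose products are also part of the active helicase. Of the 6 ORC genes 1 was lower and 2 were higher, with a median of -0.077. Among CDC6, CDT1 and GMNN 1 was lower and 1 higher, with a median of -0.20. Of 21 fork members 10 were lower (47.6%) and 2 higher (9.52%), with a median of -0.16. Of 8 firing members 2 were lower (25.0%) and 1 was higher (12.5%), with a median of -0.023. Over all genes 28.1% were lower and 28.7% higher, so the firing shares were not above those of all genes. No test of the difference between the 3 sets was made.

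The counts of a set can also be added up. In CPM, scaled with TMM factors, the licensing genes summed to 1443 ± 28.5 in PC9 libraries and 1149 ± 1.53 in PS libraries (mean ± SD, n = 3), so that PS cells had 79.6% of the PC9 sum. The fork genes summed to 1522 ± 5.69 and 1370 ± 7.23 CPM, or 90.0%. The firing genes summed to 247 ± 5.21 and 244 ± 2.30 CPM, or 98.6%. The licensing and fork sums did not overlap between conditions, and the firing sums did. Each sum follows its most abundant genes, which are MCM2 to MCM7 in the licensing set and RPA1, PCNA and POLD2 in the fork set. Within licensing, the ORC genes summed to 95.4% of PC9, and CDC6, CDT1 and GMNN together to 78.2%.

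Averaged over genes with equal weight, the licensing set lay at -0.25 to -0.26 on the log2 scale in the PS libraries, relative to the PC9 mean. The fork set lay at -0.19 to -0.21 and the firing set at -0.012 to -0.020. All genes tested lay at -0.011 to -0.021. The PS libraries thus lay close to each other in each set, and the firing set lay at the level of all genes.

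**Figure D2:**
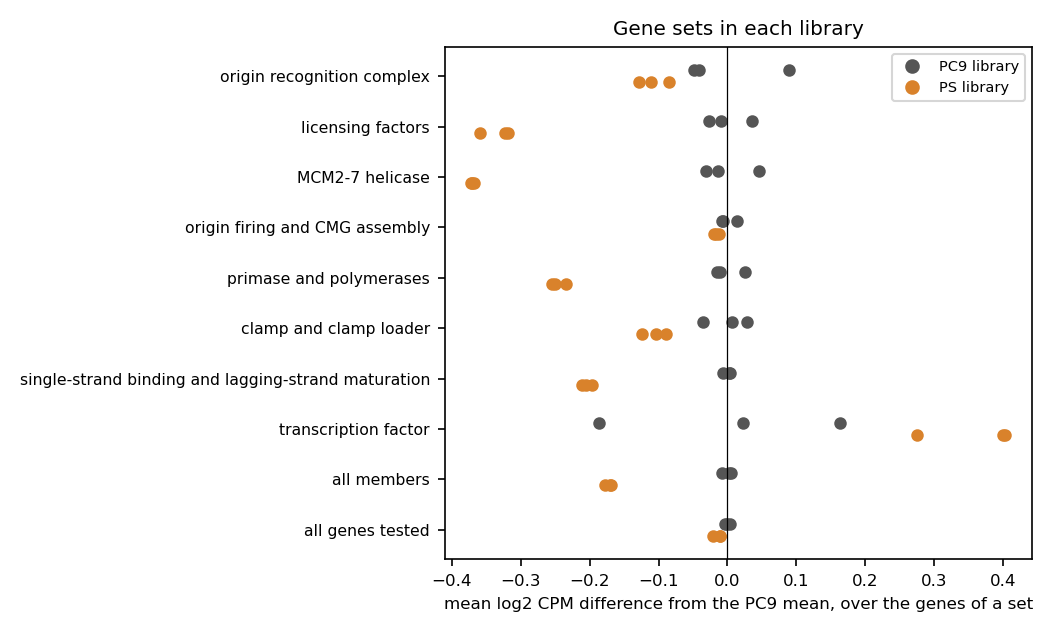
Mean log2 CPM difference of each library from the PC9 mean, over the genes of each role (one point per library, grey PC9 and orange PS, n = 3 each). PS libraries lie left of all PC9 libraries for every role but the transcription factor E2F1, and the distance is smallest for origin firing.

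The origin recognition complex did not move as one. ORC1, the subunit that comes and goes with the cell cycle in human cells and binds ATP, was lower in PS cells, while ORC4 and ORC5 were higher. ORC2, ORC3 and ORC6 did not pass the limit in this fit. The shares of the 6 genes, 16.7% lower and 33.3% higher, stand beside 28.1% and 28.7% of all genes.

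ORC1 (chr1:52372829-52404423, minus strand) had 33.9, 34.1 and 32.3 CPM in the PC9 libraries and 19.5, 19.7 and 19.4 CPM in the PS libraries. Its groups were far apart relative to the spread within each. The log2 fold change was -0.78 (standard error, SE, 0.049, adjusted p = 1.52e-07, edgeR). ORC4, another ATP-binding subunit of the ring, had 38.8, 34.5 and 36.6 CPM in PC9 and 45.9, 42.6 and 43.2 CPM in PS. All PS values were above all PC9 values, with a log2 fold change of 0.26 (adjusted p = 0.00151, edgeR). Of the 45 members, 21 share exon bases with another annotated gene, 17 with one on the opposite strand and 6 with one on the same strand. The 6 leave out MCM7, which shares 29 exon bases with the microRNA gene MIR93 on its own strand. ORC4 shares 431 exon bases with ACVR2A and 157 with MBD5 on the opposite strand, and the sources used here do not state whether counting used strand. ORC5 had 27.8, 25.4 and 26.2 CPM in PC9 and 30.2, 31.3 and 30.0 CPM in PS. Its rise of 0.21 (adjusted p = 0.00444, edgeR) did not overlap between groups, but no longer passed the limit without PC9 replicate 2, PC9 replicate 3 or any one PS replicate (adjusted p 0.0121 to 0.0242), nor with upper-quartile or library size scaling.

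The other ORC genes had log2 fold changes of -0.19 (ORC2, adjusted p = 0.0187, edgeR), 0.032 (ORC3) and -0.20 (ORC6). ORC2 passed the limit with upper-quartile (adjusted p = 0.00636) or library size scaling (0.00581) and without PC9 replicate 2 (0.00996) or PS replicate 1 (0.00622). PS libraries were below PC9 libraries in ORC2, and overlapped with them in ORC3 and ORC6. ORC6 had the widest spread of all members in PC9 cells, a coefficient of variation of 13.6%, where the median member had 4.27%.

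Among the loading factors CDT1 fell and CDC6 rose. CDT1, which brings the MCM ring to ORC and is destroyed once S phase begins, had the largest change of the 45 members. CDT1 (chr16:88803789-88809258, plus strand) had 89.1, 104 and 97.0 CPM in PC9 and 46.8, 47.8 and 50.6 CPM in PS. The lowest PC9 library was well above the highest PS library, and the log2 fold change was -0.999 (SE 0.060, adjusted p = 1.02e-07, edgeR). CDC6, the ATPase that joins ORC to receive the ring, had 63.3, 63.3 and 66.2 CPM in PC9 and 75.1, 74.3 and 71.0 CPM in PS. The groups did not overlap, and the log2 fold change was 0.19 (adjusted p = 0.00185, edgeR). The CDC6 call was lost with library size scaling (adjusted p = 0.0145) and without PS replicate 2 (adjusted p = 0.0107).

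GMNN, the inhibitor of CDT1, had a log2 fold change of -0.20 and lay just outside the limit (adjusted p = 0.0102, edgeR). It passed with upper-quartile (adjusted p = 0.00364) or library size scaling (0.00200), without a filter on low counts (0.00905) and without PC9 replicate 2 (0.000667). All PS libraries were below all PC9 libraries. The log2 ratio of CDT1 to GMNN counts was 1.097 ± 0.206 in PC9 and 0.295 ± 0.0564 in PS (n = 3), without overlap. The log2 ratio of CDC6 to CDT1 was -0.589 ± 0.119 in PC9 and 0.602 ± 0.102 in PS, so that CDC6 had fewer counts than CDT1 in each PC9 library and more in each PS library. These and the other pairs of partners below were chosen after their values had been seen and were not tested. The counts are not divided by length, so only the change in a ratio can be read.

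All 6 genes of the MCM2-7 ring were lower in PS cells, where 28.1% of all genes were. Their log2 fold changes ran from -0.57 (MCM5) to -0.21 (MCM3 and MCM4), with a median of -0.36, and each passed the limit in every other fit made, apart from the added requirement of a 1.5-fold change. The 6 genes together had 76.9% of the PC9 sum in PS cells, with 1040 ± 32.4 CPM in PC9 and 799 ± 3.05 CPM in PS (n = 3).

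MCM7 (chr7:100092233-100101940, minus strand) had 300, 326 and 306 CPM in PC9 and 217, 214 and 218 CPM in PS. The distance between the groups exceeded the spread within either, with a log2 fold change of -0.52 (SE 0.039, adjusted p = 6.37e-07, edgeR). MCM7 shares exon bases with AP4M1 on the opposite strand. MCM5 had 107, 126 and 114 CPM in PC9 and 79.8, 75.01 and 79.6 CPM in PS, a log2 fold change of -0.57 (adjusted p = 7.05e-06, edgeR). PC9 replicate 2 was the highest of the 3 PC9 libraries in MCM5 and MCM7. MCM6 had 105, 102 and 103 CPM in PC9 and 82.7, 81.7 and 79.6 CPM in PS, a log2 fold change of -0.35 (adjusted p = 1.04e-05, edgeR). MCM2 fell by 0.37 on the log2 scale, and MCM3 and MCM4 each fell by 0.21. With counts summed from transcripts the MCM4 value was -0.38 (adjusted p = 0.00284, edgeR). It was larger in size than the -0.37 of MCM2 and the -0.35 of MCM6 in that fit, so the order within the ring differed. Transcripts matched to the annotation held 92.1% of the MCM4 counts and 100% of those of the other ring genes. The part of the MCM4 shift that came from counts outside matched transcripts was not tested.

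The ring holds one copy of each subunit, but the RNA levels were not equal. Levels per transcript length are given in TPM, counts per kilobase of transcript scaled to the same total in each library. In TPM, MCM7 was highest with 227 ± 10.97 in PC9 and 164 ± 5.63 in PS (n = 3). MCM6 was lowest with 52.4 ± 0.274 and 42.8 ± 1.75. The highest of the 6 was 4.33 times the lowest in PC9 cells and 3.82 times in PS cells. Coding transcripts held 63.3% of the MCM7 counts in PC9 and 59.8% in PS, and 100% of the MCM6 counts in both. The ratios take all transcripts and are thus not ratios of coding RNA.

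**Figure D3:**
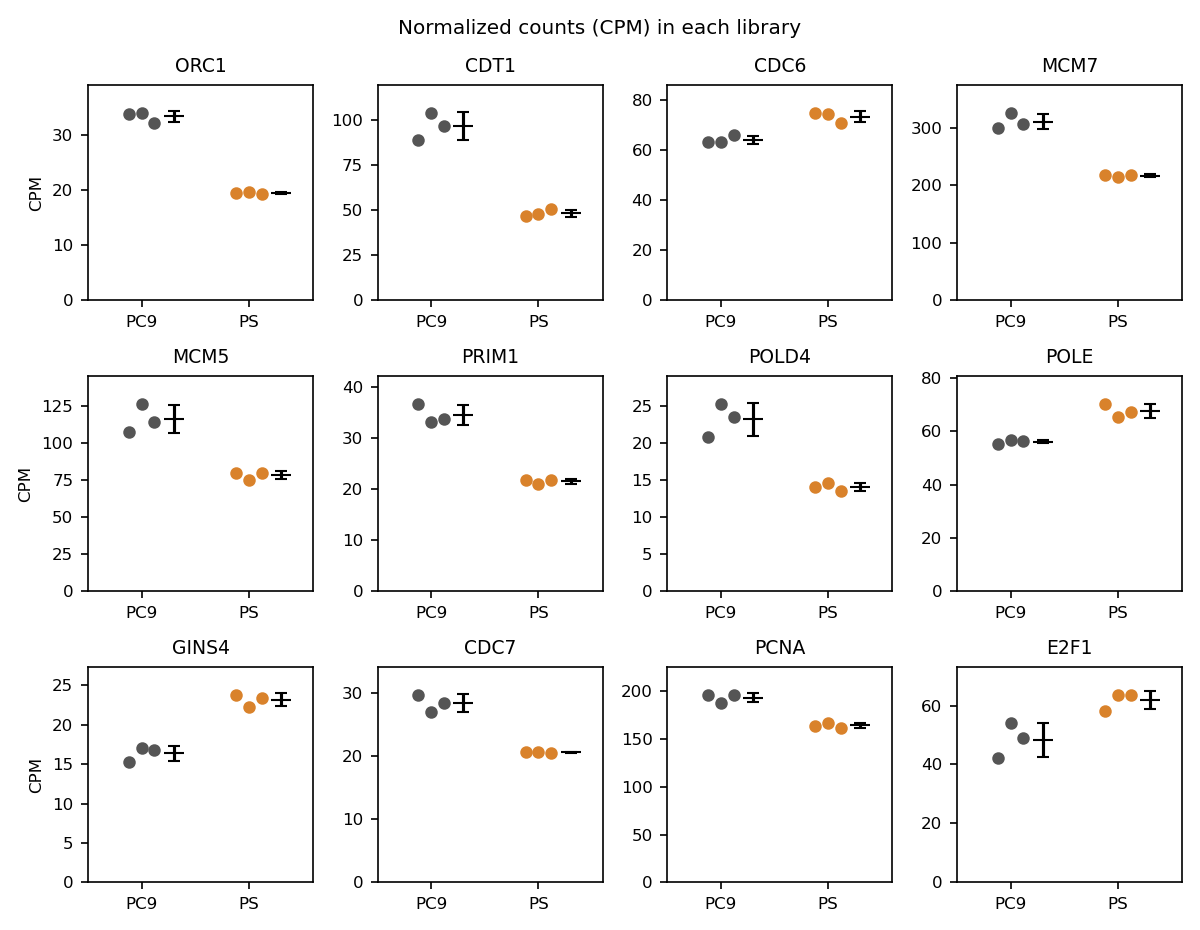
CPM of 12 members in each of the 6 libraries (points, libraries; bars, mean ± SD, n = 3; each axis starts at 0). The 12 were picked by hand from members that passed the test, so their lack of overlap is no further evidence. PC9 and PS libraries do not overlap in any of them, and overlap in 11 of all 45 members. Over all genes tested, 35.7% lie wholly below and 35.5% wholly above. ORC1, CDT1, MCM7, MCM5, PRIM1, POLD4, CDC7 and PCNA are lower in PS, and CDC6, POLE, GINS4 and E2F1 are higher.

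Of the firing genes, CDC7 and GINS1 were lower and GINS4 was higher. CDC7, the kinase that phosphorylates the loaded MCM ring, had 29.7, 26.9 and 28.4 CPM in PC9 and 20.7, 20.5 and 20.5 CPM in PS. The groups were far apart, with a log2 fold change of -0.46 (SE 0.054, adjusted p = 1.89e-05, edgeR). DBF4, the subunit that activates CDC7, had a log2 fold change of 0.11 (adjusted p = 0.103, edgeR) and overlapping groups.

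GINS1 to GINS4 form one complex, and their RNAs did not change alike. GINS4 had 15.3, 17.0 and 16.7 CPM in PC9 and 23.8, 22.3 and 23.4 CPM in PS. All PS libraries were above all PC9 libraries, with a log2 fold change of 0.50 (SE 0.061, adjusted p = 2.56e-05, edgeR), the largest rise among the members. GINS4 shares 1145 exon bases with an antisense long non-coding RNA. GINS1 had 45.3, 43.7 and 43.3 CPM in PC9 and 38.6, 40.5 and 38.3 CPM in PS. Its groups did not overlap, and the log2 fold change was -0.17 (adjusted p = 0.00558, edgeR). The GINS1 call was lost in DESeq2 (adjusted p = 0.0138) and without PC9 replicate 1, PC9 replicate 3, PS replicate 1 or PS replicate 3 (adjusted p 0.0108 to 0.0305), which left CDC7 as the one firing member called lower. The log2 ratio of GINS4 to GINS1 counts rose from -1.43 ± 0.118 in PC9 to -0.756 ± 0.0921 in PS (n = 3), without overlap.

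GINS2 (log2 fold change 0.041), GINS3 (-0.15), CDC45 (0.088), the third part of the active helicase, and MCM10 (-0.087), which helps to open the helicase, did not pass the limit. PS libraries were above PC9 libraries in CDC45, and the groups overlapped in the other 3 genes.

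The polymerases split by subunit. Of the 10 genes for primase and polymerases alpha, delta and epsilon, 5 were lower (PRIM1, POLD2, POLD3, POLD4 and POLE2) and 2 higher (POLA1 and POLE). The 2 that rose encode the large catalytic subunits of polymerase alpha, which extends primers, and of polymerase epsilon, which copies the leading strand.

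POLE had 55.3, 56.5 and 56.3 CPM in PC9 and 70.3, 65.1 and 67.2 CPM in PS. The groups were well apart, with a log2 fold change of 0.27 (SE 0.043, adjusted p = 0.000211, edgeR). Its second subunit POLE2 fell by 0.55 on the log2 scale (adjusted p = 7.52e-05, edgeR), with 10.4 to 11.7 CPM in PC9 and 7.46 to 7.72 CPM in PS. The log2 ratio of POLE to POLE2 counts rose from 2.33 ± 0.0995 to 3.15 ± 0.0708 (n = 3).

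POLA1 had 42.9, 37.9 and 41.5 CPM in PC9 and 48.6, 46.3 and 46.9 CPM in PS. The groups did not overlap, with a log2 fold change of 0.21 (adjusted p = 0.00450, edgeR), but the call was lost with upper-quartile or library size scaling and without PC9 replicate 3 or any one PS replicate (adjusted p 0.0120 to 0.0210). POLA2, its second subunit, had a log2 fold change of -0.022 and overlapping groups. It shares 2012 exon bases with a second protein-coding gene on its own strand, the most of any member.

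PRIM1, the catalytic subunit of primase, had 36.7, 33.0 and 33.6 CPM in PC9 and 21.8, 21.0 and 21.7 CPM in PS. The gap between the groups was wide, with a log2 fold change of -0.68 (SE 0.055, adjusted p = 1.17e-06, edgeR). PRIM2, the large subunit, had a log2 fold change of -0.14 (adjusted p = 0.0467, edgeR), and the log2 ratio of PRIM1 to PRIM2 counts fell from 0.428 ± 0.0931 to -0.106 ± 0.114 (n = 3). PRIM1 shares 362 exon bases with a second annotated gene and 139 with NACA on its own strand, so reads there could have been assigned to either gene. It also shares 132 with HSD17B6 on the opposite strand.

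All 4 polymerase delta genes had log2 fold changes below 0. POLD4, the smallest subunit of this lagging-strand polymerase, had 20.9, 25.3 and 23.5 CPM in PC9 and 14.1, 14.6 and 13.5 CPM in PS. The lowest PC9 library lay above the highest PS library, with a log2 fold change of -0.72 (SE 0.076, adjusted p = 8.92e-06, edgeR). POLD4 shares 650 exon bases with a second protein-coding gene on the same strand. POLD3, a subunit that binds PCNA, had 82.0, 77.2 and 76.3 CPM in PC9 and 58.7, 59.1 and 56.3 CPM in PS, a log2 fold change of -0.44 (adjusted p = 6.43e-06, edgeR) without overlap. POLD2 fell by 0.16 on the log2 scale (adjusted p = 0.00619, edgeR), a call lost without PC9 replicate 2, PC9 replicate 3, PS replicate 1 or PS replicate 3 (adjusted p 0.0154 to 0.0328). POLD1, the catalytic subunit, had -0.25 with overlapping groups and did not pass (adjusted p = 0.0146, edgeR), whereas it passed in DESeq2 (adjusted p = 0.00383), with upper-quartile (0.00546) or library size scaling (0.00651), without a filter on low counts (0.00746) and without PC9 replicate 1 (0.000144). POLD1 shares 426 exon bases with a protein-coding gene on the same strand.

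PCNA and RFC4 were lower, and the other clamp loader genes did not pass. The lower share, 2 of 6 genes (33.3%), stands beside 28.1% of all genes. PCNA, the ring that tethers polymerases, had 196, 187 and 196 CPM in PC9 and 164, 167 and 162 CPM in PS. The groups did not overlap, with a log2 fold change of -0.24 (adjusted p = 0.000160, edgeR). RFC4, a subunit of the loader, had 77.5, 75.7 and 73.7 CPM in PC9 and 57.0, 64.7 and 58.9 CPM in PS, with PS replicate 2 nearest to the PC9 libraries and a log2 fold change of -0.33 (adjusted p = 0.000178, edgeR). RFC1, RFC2, RFC3 and RFC5 had log2 fold changes of -0.12 to 0.14, and RFC5 (-0.12) passed with upper-quartile (adjusted p = 0.00746) or library size scaling (0.00656).

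Of the single-strand binding and ligation genes, RPA2, RPA3 and LIG1 were lower. RPA3, the small subunit of RPA, had 55.6, 49.8 and 54.2 CPM in PC9 and 41.2, 36.5 and 39.5 CPM in PS, a log2 fold change of -0.45 (adjusted p = 4.82e-05, edgeR). LIG1, the ligase that seals lagging-strand pieces, had 73.6, 81.8 and 73.8 CPM in PC9 and 60.2, 62.5 and 60.5 CPM in PS, a log2 fold change of -0.32 (adjusted p = 0.000160, edgeR). The groups were apart in both genes. RPA2 had 34.999, 33.7 and 35.3 CPM in PC9 and 30.0, 30.8 and 29.9 CPM in PS, a log2 fold change of -0.20 (adjusted p = 0.00283, edgeR). The RPA2 groups did not overlap, but the call was lost without PC9 replicate 3, PS replicate 1 or PS replicate 3 (adjusted p 0.0131 to 0.0174).

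RPA1, the large subunit that holds most of the DNA contacts, had a log2 fold change of -0.073 (adjusted p = 0.0682, edgeR) and passed with upper-quartile (adjusted p = 0.00953) or library size scaling (0.00583). FEN1, the nuclease that trims primer flaps before LIG1 acts, had 0.014 (adjusted p = 0.784, edgeR) and overlapping groups. The standard error of the FEN1 value was 0.041.

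E2F1, which activates many of these genes, was higher in PS cells. It had 42.3, 53.9 and 48.9 CPM in PC9 and 58.3, 63.5 and 63.7 CPM in PS. The groups did not overlap but PC9 replicate 1 was low, and the log2 fold change was 0.36 (SE 0.077, adjusted p = 0.00183, edgeR). Without PS replicate 3 the call was lost (adjusted p = 0.0107).

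The members differed widely in level. In TPM, PCNA was highest with 288 ± 5.11 in PC9 and 253 ± 6.28 in PS (n = 3). It was followed in PC9 by MCM7 and by POLD2 with 217 ± 10.6, which lay below MCM7 in each PC9 library. In PS cells POLD2 had 202 ± 2.44 and lay above MCM7 in each library. At the lower end in PC9 cells were GINS4 with 9.42 ± 0.988, POLE2 with 13.5 ± 1.71, POLA1 with 14.4 ± 0.736 and POLE with 14.8 ± 1.48, the last 3 within each other's spread. In PS cells POLE2 was lowest with 10.97 ± 1.63, then ORC1 with 12.4 ± 0.294. ORC1 lay above POLE2 in each PS library, by little in PS replicate 1 (12.70 against 12.68).

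Of the genes that changed place, CDT1 went from rank 14 to rank 24 of 45, with 70.4 ± 6.00 in PC9 and 36.9 ± 1.66 in PS. E2F1 went from rank 26 to rank 18, and ORC1 from rank 38 to rank 44. The levels use the lengths of matched transcripts, which held 81.7% of the CDC6 counts and 92.1% of the MCM4 counts.

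**Figure D4:**
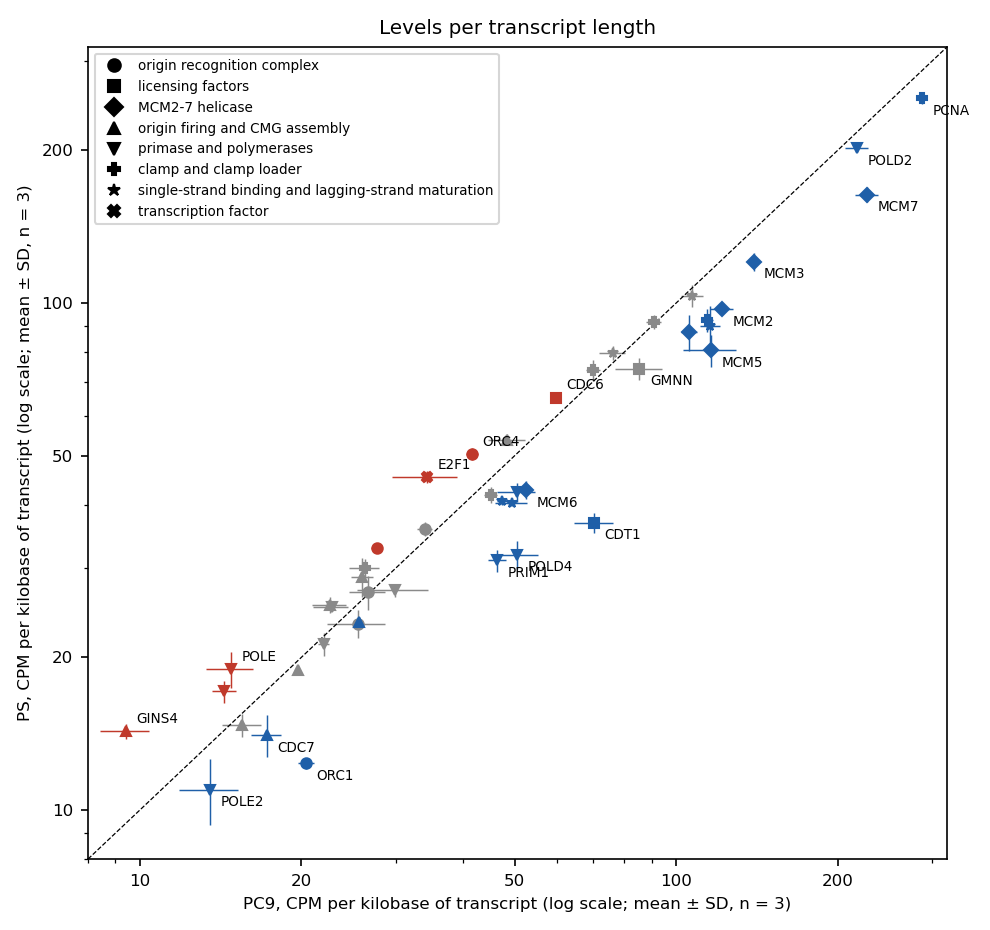
Levels of the 45 members in TPM, PC9 against PS on log axes (marker shape, role; red higher, blue lower, grey not past the limit; bars, SD, n = 3; dashed line, equal levels). The axes name these values CPM per kilobase of transcript. PCNA is highest in both conditions at 288 and 253, CDT1 lies farthest below the line, and GINS4 lies above it at 9.42 and 14.3.

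Transcripts of the members were tested in the same way. Of 180 transcripts tested, 10 were lower and 0 were higher (edgeR, adjusted over all transcripts), while 37 were lower and 13 higher at an unadjusted p under 0.05. Over all transcripts 3.91% were lower and 3.89% higher. The 10 were the transcript with the most counts of ORC1, CDT1, MCM5, MCM6, MCM7, PRIM1, POLD2, POLD3, PCNA and RFC4. Their log2 fold changes ran from -1.03 for CDT1-201, which held 99.5% of the CDT1 counts in PC9 cells, to -0.27 for PCNA-201. The count of 10 fell to between 5 and 6 without PC9 replicate 3 or any one PS replicate.

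Some genes gave much of their RNA as more than one transcript. MCM7-201, the coding form, held 62.7% of the MCM7 counts in PC9 and 59.6% in PS, and most of the rest was MCM7-209, a transcript with a retained intron. PRIM1-201 held 87.8% of the PRIM1 counts in PC9 and 73.0% in PS, and its log2 fold change was -0.97 (adjusted p = 0.00108, edgeR). Transcript usage within PRIM1 did not pass the limit (adjusted p = 0.169, edgeR's diffSpliceDGE).

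Usage could be tested in 40 members and passed the limit in 1, POLD4 (adjusted p = 0.000717, edgeR's diffSpliceDGE), against 1.88% of all genes tested for usage. It rested on POLD4-208, with counts of 19, 58 and 45 in the PC9 libraries and 0 in each PS library. This transcript held 5.03% of the POLD4 counts in PC9. The call was absent when each transcript needed a count of 10 in all libraries (adjusted p = 0.549), and without PC9 replicate 2 or any one PS replicate (adjusted p 0.0148 to 0.0268). Without PC9 replicate 1 there were 2 members called, and 3 without PC9 replicate 3.

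Of 33 replisome-associated genes outside the 45, among them fork protection, checkpoint and chromatin assembly factors, 10 were higher (30.3%) and 8 lower (24.2%), with a median log2 fold change of -0.067. These shares are close to the 28.7% and 28.1% of all genes. Their summed level was 1871 ± 4.95 CPM in PC9 and 1873 ± 16.6 CPM in PS (n = 3). CLSPN, the checkpoint adaptor claspin that travels with the fork, had 31.5, 30.8 and 32.5 CPM in PC9 and 50.6, 49.3 and 49.1 CPM in PS. It was higher by 0.65 on the log2 scale (adjusted p = 2.70e-07, edgeR). POLE4 and POLE3, the small histone-like subunits of polymerase epsilon, were higher by 0.56 and 0.21, as was the catalytic POLE, while POLE2 was lower.

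PCLAF, a PCNA-binding factor, fell by 0.71 on the log2 scale, with 34.7, 33.7 and 36.8 CPM in PC9 and 22.5, 21.6 and 20.4 CPM in PS. WDHD1, which links the helicase to polymerase alpha, fell by 0.47 and the nuclease DNA2 fell by 0.41. With library size scaling this list had 7 genes higher and 13 lower.

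Of the E2F, DP and pocket protein genes 5 of 15 were higher and 5 lower, 33.3% each way beside 28.7% and 28.1% of all genes, with a median of 0.054. MYBL2, an E2F target that drives mitotic genes, had 134, 144 and 131 CPM in PC9 and 335, 359 and 349 CPM in PS, a log2 fold change of 1.35 (adjusted p = 1.26e-09, edgeR). E2F7, a repressor, was higher by 0.61 and TFDP1, the dimer partner of E2F1, by 0.22. RBL2, the pocket protein p130 of resting cells, fell by 0.57, E2F8 fell by 0.29 and E2F5 fell by 0.27. The 5 lower genes became 2 without PC9 replicate 3 or PS replicate 2 and 3 without PS replicate 1.

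Markers of S phase and mitosis were mostly higher in PS cells. Of 14 such genes 10 were higher and 1 was lower, with a median log2 fold change of 0.26, where 28.7% of all genes were higher. With library size scaling, 7 were higher and 2 lower. The summed level was 1904 ± 48.0 CPM in PC9 and 2326 ± 19.1 CPM in PS (n = 3).

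CCNA2, the cyclin of S and G2 phase, was higher by 0.44 on the log2 scale, the mitotic kinase PLK1 by 0.67 and AURKA by 0.43. MKI67, the proliferation marker, had 242, 191 and 236 CPM in PC9 and 377, 351 and 369 CPM in PS and was named after its values had been seen. TYMS, the thymidylate synthase, had 107, 109 and 107 CPM in PC9 and 86.3, 86.6 and 86.4 CPM in PS. It was the one marker that passed the limit as lower. CDK1 had a log2 fold change of -0.098 and did not pass (adjusted p = 0.0422, edgeR), although all PS libraries were below all PC9 libraries. The licensing and fork members thus had medians below 0 in the same libraries in which this list had a median above 0, and the difference between the lists was not tested.

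**Figure D5:**
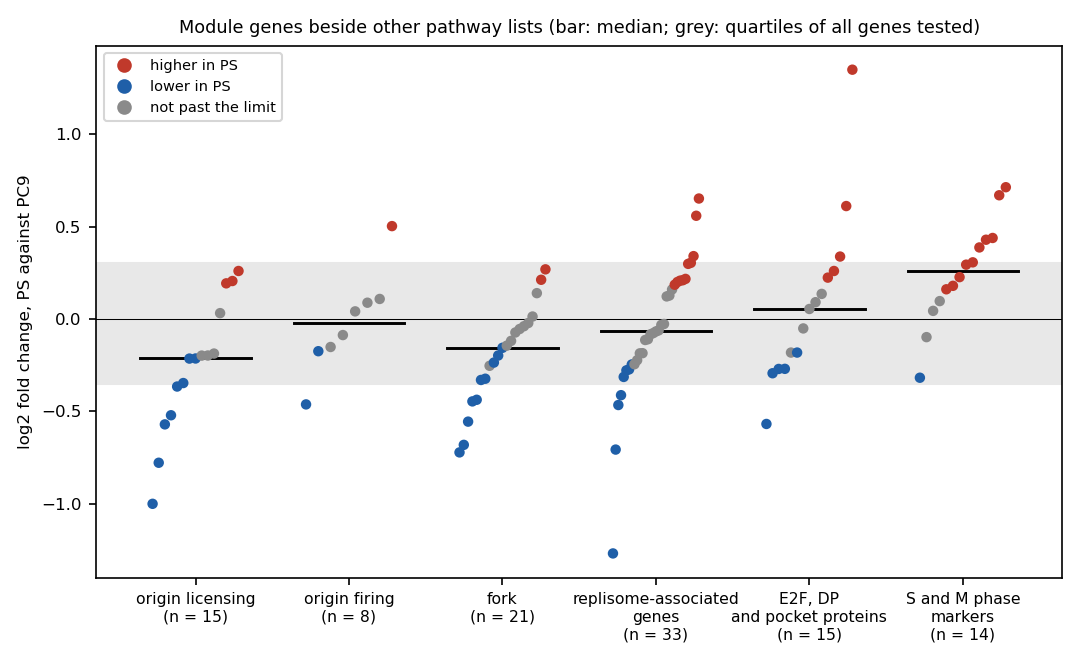
Log2 fold changes, PS against PC9, of licensing, firing and fork members and of 3 other lists (points, genes coloured by call; black bar, median of the list; grey band, the quartiles of all genes tested, from -0.35 to 0.30). The medians are -0.21, -0.023 and -0.16 for the members, -0.067 and 0.054 for the replisome-associated and E2F lists, and 0.26 for the S and M phase markers.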

How the data were processed

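The values are kallisto 0.46.1 estimated counts, which the authors deposited unnormalized and as whole numbers, in one table of gene symbols and one of transcripts, from poly-A libraries read against Ensembl release 96 (GRCh38). How reads shared by overlapping genes were divided, and whether strand was used, is not given in the sources used here. Assignment uncertainty enters no test. Groups came from the sample labels, and dose and culture numbers from the study's methods.

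Genes passing edgeR's filterByExpr were normalized with TMM and compared by glmQLFTest (edgeR 4.0.16, R 4.3.3) without covariates. The study's own fit also held another laboratory's libraries, not used here. A standard error is the fold change divided by the square root of F. CPM are TMM-scaled counts, with a prior count of 2 for means of log2 values. Exon overlaps and coordinates came from GENCODE 44. Where cultures were separate, p-values measure the spread between 3 libraries.

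The 45 members and all gene lists were chosen with earlier results of these data known. Values in every library are given for E2F1 and for up to 3 rises and 3 falls per role with the smallest p-values, and from other lists likewise for naming. Alternatives were DESeq2 1.42.0, limma 3.58.1 (voom), other scalings, no filter, counts summed from transcripts, a replicate block, other limits and each library left out.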

Additional observations from a re-analysis of the deposited data

How the results depend on the processing

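Of the 27 members called, 20 (17 lower, 3 higher) passed the limit of 0.01 under all 14 refits: DESeq2, limma voom, 3 other scalings, no filter, transcript sums, the replicate block and 6 omissions of 1 library. The other 7 (CDC6, E2F1, GINS1, ORC5, POLA1, POLD2 and RPA2) lost the call in at least 1, and none of the 27 changed direction. With a fold change above 1.5 also required, 4 members were lower and 0 higher (4 in all): 2 lower licensing, 2 lower fork and 0 firing genes, with 0 higher in each, and 1662 genes were higher and 1839 lower overall. With library size only, 4 members were higher, 1 in licensing and 1 in the fork, the replisome list had 13 lower and the S and M list 2 lower. Upper-quartile factors left 1 higher fork member, and DESeq2 left 1 lower firing member. These scalings moved the median of all genes to -0.059 and -0.049.

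Leaving out 1 library gave 4 to 7 members higher and 17 to 21 lower, 1 to 3 licensing members higher, 1 to 2 firing members lower, 1 to 2 fork members higher, 2 to 5 lower genes in the E2F list, 5 to 10 lower transcripts and 0 to 3 members with changed usage. With a count of 10 in all libraries, usage changed in 0.

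Directions turned only in members that did not pass: ORC3 (-0.011 upper-quartile, -0.022 library size, -0.00483 to 0.064 leaving out 1 library), GINS2 (-0.00156 and -0.012 with these scalings), POLA2 (0.026 from transcript sums, -0.070 to 0.022 leaving out 1 library) and FEN1 (-0.029 and -0.040 with these scalings, -0.017 to 0.035 leaving out 1 library). The causes were not tested.

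Replicate numbers marked no known pairing: deviations of same-numbered libraries correlated at 0.334, 0.0889 and 0.134 over 8658 genes, and PC9 replicate 2 was closest to PS replicate 3 (0.397). With the replicate block 23 members were lower and 7 higher, and 1 transcript in place of 10 was lower. With 3 libraries per group, an exact permutation test of a single value cannot give a p below 0.1.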
